A study of Mus musculus with 16 samples.

Results

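The Zfp genes encode mouse zinc finger proteins, most of them built from repeats of the C2H2 finger. They were taken here as the protein-coding genes of the deposited table whose symbol is Zfp followed by a number, leaving out Zfp36 and the Zfp36l genes, which bind RNA with another kind of finger. This gave 54 of the 2438 genes in the table. The table holds only genes that the authors had already selected as different between the groups on these same libraries, with a largest adjusted p of 0.0497 among 16488 genes tested. The count of members and their directions therefore describe that selection, and the Zfp genes outside it were not analysed here. RefSeq (GRCm38.p6) lists 393 protein-coding genes with such names, so 13.7% of them were in the table. The table holds 14.8% of all genes the authors tested. How many of the 393 were among those tested is unknown, so the shares have unlike bases.

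The samples were RNA-seq libraries of duodenal epithelium from mice fed a high fat diet for 19 weeks, beginning at 8 weeks of age. The 9 control libraries came from Ephb4 fl/fl mice (flox, replicates 1 to 7, 9 and 10), in which Ephb4 is flanked by recombination sites. The other 7 libraries came from Ephb4 intestinal epithelial cell knockout mice (KO, replicates 1 to 5, 7 and 8). EphB4 is a receptor tyrosine kinase for ephrin-B2, and the study asked what its loss in the intestinal epithelium does in diet-induced obesity. The recombinase that deletes the gene goes unnamed in the sources used here. The labels speak of epithelium and the design text of proximal small intestine tissue, and the labels do not say that each library is 1 mouse, although the numbers equal the mice of the design text. All p-values then measure the spread between these libraries.

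C2H2 zinc finger genes form one of the largest gene families of mammals. Each finger is folded around a zinc ion held by a pair of cysteines and a pair of histidines, and an array of fingers reads a DNA sequence a few bases per finger. Many members also carry a KRAB domain at the amino end, which recruits the corepressor TRIM28 and, through it, histone methylation and DNA methylation. KRAB zinc finger proteins are best known for silencing endogenous retroviruses and other transposable elements, and their genes sit in clusters that grew by duplication.

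All values are normalised counts, which are read counts divided by a size factor of the library, so that with size factors from 0.878 to 1.38 a value of 50 stands for about as many reads. Reads in listed genes numbered 4237178 to 5316273 per flox library and 3592468 to 4555872 per KO library. Reads in the 54 Zfp genes numbered 9125 to 11488 and 11092 to 16164. Total depth is unknown. The targeted gene Ephb4 was at 36.6 ± 21.7 (SD, n = 7) in KO and 210.5 ± 94.4 (SD, n = 9) in flox, with no overlap, a log2 difference of -2.51 and an exact permutation p (two-sided) of 8.74e-05, the lowest value possible with 11440 splits. KO replicate 1 kept the most Ephb4 of its group, at 84.7.

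Most of the listed Zfp genes were higher without Ephb4. In the authors' deposited table, 45 of the 54 were higher in KO and 9 were lower, 83.3% higher, against 47.2% of all listed genes and 45.1% of the 2247 protein-coding ones. The authors called 6.97% of the genes they tested higher and 7.81% lower. The differences were small. The median log2 fold change in the authors' deposited table was 0.541 for the 45 higher members and 0.748 for all listed genes that were higher. It was -0.348 for the 9 lower members and -0.367 for all listed genes that were lower. In that table only 3 higher members had log2 fold changes of 1 or more in size (Zfp354c, Zfp951 and Zfp934), and no lower member did. Of all 1150 listed genes that were higher, 372 reached this size, as did 65 of the 1288 that were lower.

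The fold changes were checked with limma on log2(normalised count + 1), with Benjamini-Hochberg adjustment of the p-values over 16488 genes and unlisted genes set to a p of 1. This used the same libraries that the genes were selected on, so it is no independent support. Of the 52 members with a mean of at least 10, 23 were higher and 6 lower at an adjusted p under 0.05 in limma. Among all 2339 listed genes so tested, 449 (19.2%) were higher and 820 (35.1%) lower. At an unadjusted p under 0.05, 43 members were higher and 9 lower, where 44.5% and 54% of all listed genes were higher and lower, as follows from the selection. The median log2 difference was 0.46 over the 52 members and -0.25 over all listed genes tested. Leaving out 1 library changed the limma counts. The 23 higher members became 13 without flox replicate 3, 14 without flox replicate 4, 12 without flox replicate 10, 13 without KO replicate 4, 13 without KO replicate 5 and 8 without KO replicate 7. The 6 lower members became 3 without flox replicate 3, 4, 5 or 10 or KO replicate 4, and 2 without KO replicate 5 or 7. Whichever library was left out, 7 higher members (Zfp101, Zfp280d, Zfp595, Zfp770, Zfp930, Zfp943 and Zfp950) and 2 lower members (Zfp687 and Zfp703) stayed under 0.05.

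**Figure D1:**
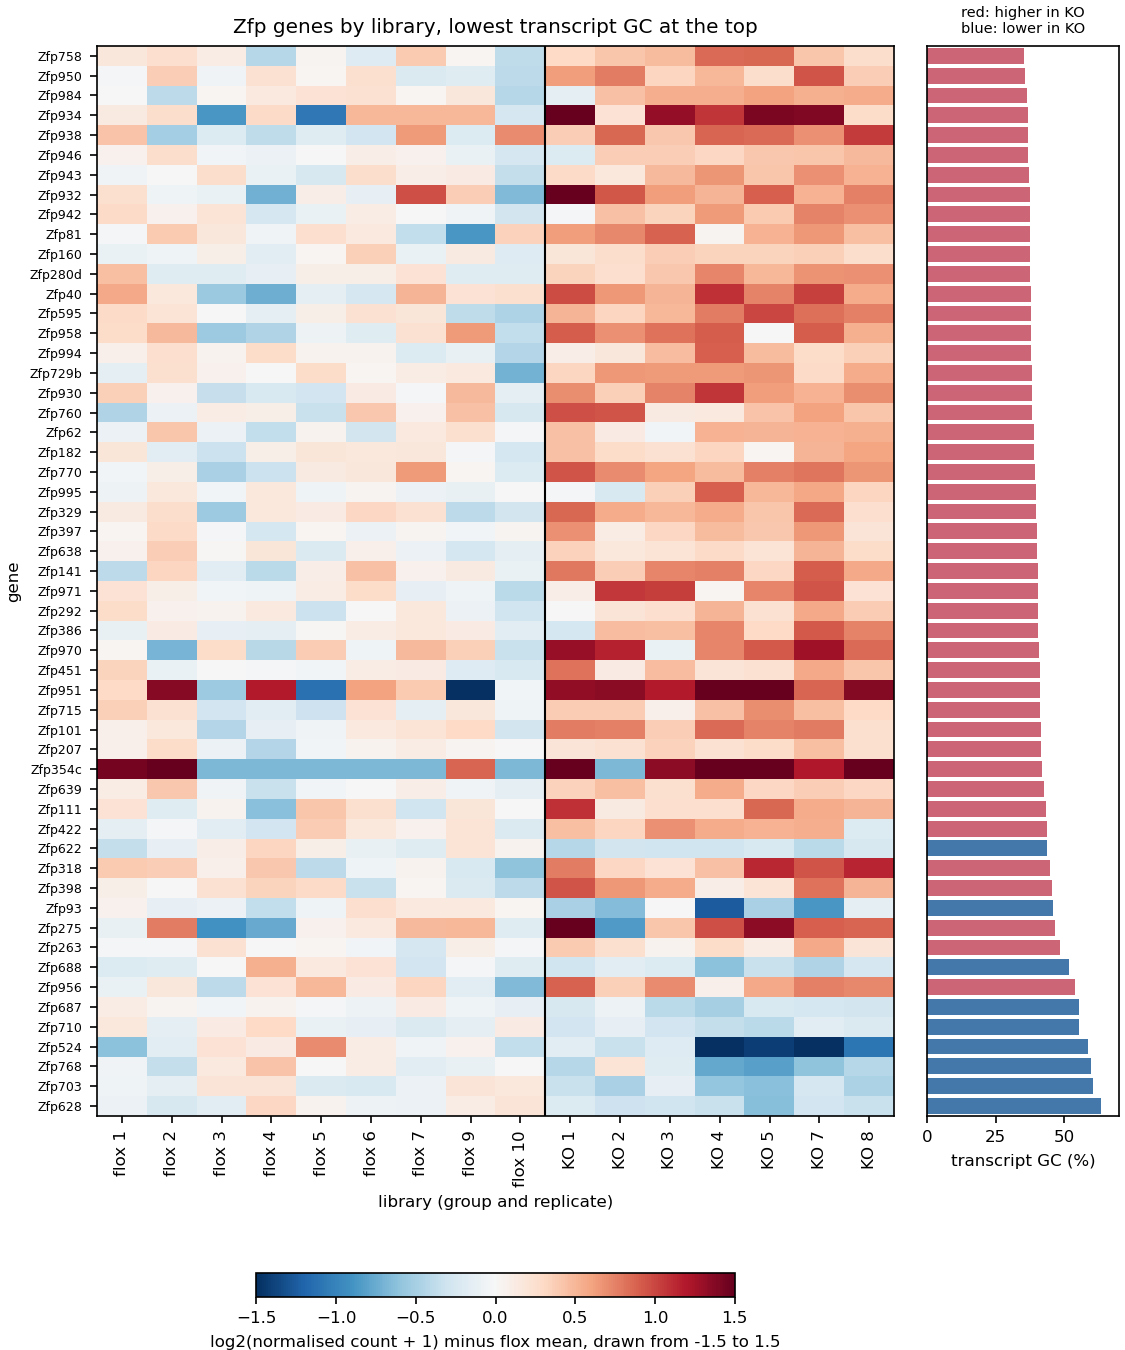
Each row is 1 of the 54 Zfp genes and each column 1 library, with flox left and KO right of the black line. Colour gives log2(normalised count + 1) minus the flox mean of that gene, drawn from -1.5 to 1.5, and the bars on the right give the GC content of the longest transcript in percent, red for genes higher and blue for genes lower in KO by the authors' scaling. Rows run from low to high GC, and the 24 genes under 40% GC were all in the higher group while the 6 of at least 55% GC were all in the lower group.

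The direction was visible in every KO library. The 45 higher members had a median log2 difference from their flox means between -0.24 (flox replicate 10) and 0.16 (flox replicate 2) in flox libraries, and between 0.37 (KO replicate 2) and 0.65 (KO replicate 7) in KO libraries. For the 9 lower members the same medians ran from -0.14 to 0.30 in flox, with flox replicate 4 highest, and from -0.58 (KO replicate 4) to -0.20 (KO replicate 3) in KO. These separations follow from how the genes were selected. Summed over the 54 genes, flox libraries held 10037 to 11253 normalised counts and KO libraries 11704 to 13244, and the groups did not overlap. Single genes separated less well. Only 2 members had every KO library above every flox library, Zfp595 and Zfp729b, against 1.93% of all listed genes, and no member had every KO library below every flox library, against 5.33% of all listed genes. The extreme values were shared out unevenly. KO replicate 1 was the highest KO library for 13 of the 45 higher members and the lowest for 9, KO replicate 2 was the lowest for 12, and flox replicate 10 was the lowest flox library for 15.

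By the structure of the protein, 46 of the 54 members carry the C2H2 class in the table, and a search of the longest reading frame found at least 10 fingers in 37 of them. The reading frames equalled the annotated coding length for 52 of 54. Higher members had a median of 11 fingers (2 to 30) and lower members 9 (0 to 16). Zfp703 had no match to the finger pattern, and Zfp729b had the 30. A KRAB A box pattern was found in 29 members, and of these 28 were higher and 1 was lower (Zfp688). Of the 25 members without it, 17 were higher and 8 lower. In limma, 14 members with the KRAB pattern were higher and 0 lower at an adjusted p under 0.05, and Zfp688 was lower at an unadjusted p under 0.05. Without the pattern, 9 were higher and 6 lower in limma. Of all listed genes tested, 19.2% were higher and 35.1% lower in limma. The limma median log2 difference was 0.54 with the pattern and 0.37 without. The classes also differed in GC content of the longest transcript, with medians of 37.9% with the pattern and 43.6% without. When the trend of log2 values with GC content was removed in each library, the median log2 differences were 0.05 with the pattern and 0.02 without. The pattern was written with the members in view and the difference between the classes was not tested. Beyond the Zfp names, 18 other listed protein-coding genes carry the C2H2 class, of which 13 were higher and 5 lower. The lower ones were Klf13, Klf15, Klf16, Sp5 and Zfpm1.

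The members with the largest rises in the authors' table were scarce transcripts. Zfp354c, a KRAB zinc finger gene (11:50811086-50827724, GRCm38, minus strand), was listed at 0 in 6 of 9 flox libraries and at 1.92, 3.31 and 4.16 in the others. In KO it was at 0 in replicate 2, 2.66 in replicate 7, 3.02 in replicate 3 and 7.66, 10.5, 12.4 and 13.0 in the other 4. The authors' deposited table gave it a log2 fold change of 2.76 (adjusted p 0.0283), and it rested on few reads and was not tested in limma. Zfp951 ran from 0 to 10.4 (median 4.42) in flox and from 7.09 to 17.5 (median 10.3) in KO, with 3 KO libraries above every flox library. Both genes lie under the mean of 10 required for limma.

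Zfp934 (13:62479827-62571199, minus strand), with 11 fingers and a KRAB box, ran from 5.16 to 17.3 (median 14.6) in flox and from 14.0 to 55.8 (median 31.2) in KO. Its means were 12.8 ± 4.72 (SD, n = 9) and 29.7 ± 14.1 (SD, n = 7), a 2.32-fold difference with a log2 difference of 1.12 ± 0.33 (SE) and an adjusted p of 0.0458 in limma. KO replicates 2 and 8 lay within the flox range and KO replicate 1 far above the rest. Zfp970 rose from 14.6 ± 4.16 to 27.9 ± 8.01, 1.91-fold, at an adjusted p of 0.0465 in limma, with 6 of 7 KO libraries above every flox library and KO replicate 3 within the flox range. Zfp932, a KRAB zinc finger protein known to bind and repress endogenous retroviruses of the ERVK class, ran from 14.8 to 49.7 (median 23.9) in flox and from 36.1 to 73.9 (median 42.9) in KO. Its adjusted p was 0.0435 in limma, and only KO replicate 1 lay above flox replicate 7, the highest flox library. The limma calls of Zfp934, Zfp970 and Zfp932 were each lost without 10 or more of the 16 libraries in turn, at adjusted p-values up to 0.107, 0.108 and 0.101. Zfp275, Zfp40 and Zfp938 had log2 differences of 0.76, 0.79 and 0.73 but adjusted p-values of 0.221, 0.0522 and 0.0557 in limma, so these did not pass. Zfp40 and Zfp938 turned to -0.13 and -0.09 under quantile normalisation, and Zfp275 to -0.41 with a score of non-epithelial markers as covariate. When the trend of log2 values with transcript GC content was removed in each library, a trend fitted to the listed genes, Zfp934, Zfp970 and Zfp932 stood at 0.63, 0.43 and 0.34 and lost their calls.

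Where transcripts of different genes share a stretch, its reads can be assigned to the wrong gene. Shared stretches were counted on either strand, and genes annotated at the same place were not left out. More than 10% of the 100-base stretches of 8 members also occur in transcripts of another gene, so their counts are uncertain. The shares were 43.6% for Zfp524 (with Gm44973), 39.8% for Zfp729b (with Gm49345), 31.2% for Zfp984 (most with Gm13212), 22.1% for Zfp932 (most with Gm15446) and 19.4% for Zfp970 (most with Gm14288). They were 14.1% for Zfp934 (most with Zfp808), 13.8% for Zfp971 (most with Gm14288) and 11.1% for Zfp280d (with BC065403). For 33 members no such stretch was shared.

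Members of moderate level included the 2 whose groups did not overlap. Zfp595 (13:67312998-67332570, minus strand), a KRAB zinc finger gene with 18 fingers, ran from 36.3 (flox replicate 10) to 61.8 (flox replicate 1) with a median of 53.6 in flox, and from 63.5 (KO replicate 2) to 101.8 (KO replicate 5) with a median of 85.8 in KO. All 7 KO libraries were above all 9 flox libraries. The means of 51.2 ± 9.28 and 81.7 ± 13.2 differed 1.59-fold, with a log2 difference of 0.67 ± 0.15 (SE) and an adjusted p of 0.0179 in limma. Its neighbour in the same cluster on chromosome 13, Zfp729b, ran from 50.6 to 101 in flox and from 101.9 to 132.3 in KO, with an adjusted p of 0.0261 in limma and of 0.0582 without KO replicate 5. The gap between its groups was under 1 normalised count and 39.8% of its stretches are shared with Gm49345.

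Zfp101 (17:33360507-33394641, minus strand) had the smallest adjusted p of the 52 members in limma, 0.0112. It ran from 62.8 to 105.6 (median 90.5) in flox and from 101.5 to 155.5 (median 145.6) in KO, and only KO replicate 8 lay within the flox range. The log2 difference was 0.65 ± 0.13 (SE). Zfp930, with 12 fingers and a KRAB box, was at 43.6 ± 9.27 in flox and 69.6 ± 11.1 in KO, 1.60-fold higher (limma adjusted p = 0.0196), with KO replicate 2 alone inside the flox range. Zfp770, a gene with 10 fingers and no KRAB pattern, was at 44.2 ± 10.8 and 71.3 ± 7.65, 1.61-fold higher (limma adjusted p = 0.0177). Flox replicate 7, at 67.9, was the one flox library that reached into the KO range for Zfp770. With the GC trend removed, the log2 differences of Zfp595, Zfp729b, Zfp101, Zfp930 and Zfp770 were 0.19, 0.06, 0.21, 0.19 and 0.24, and none kept its call.

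**Figure D2:**
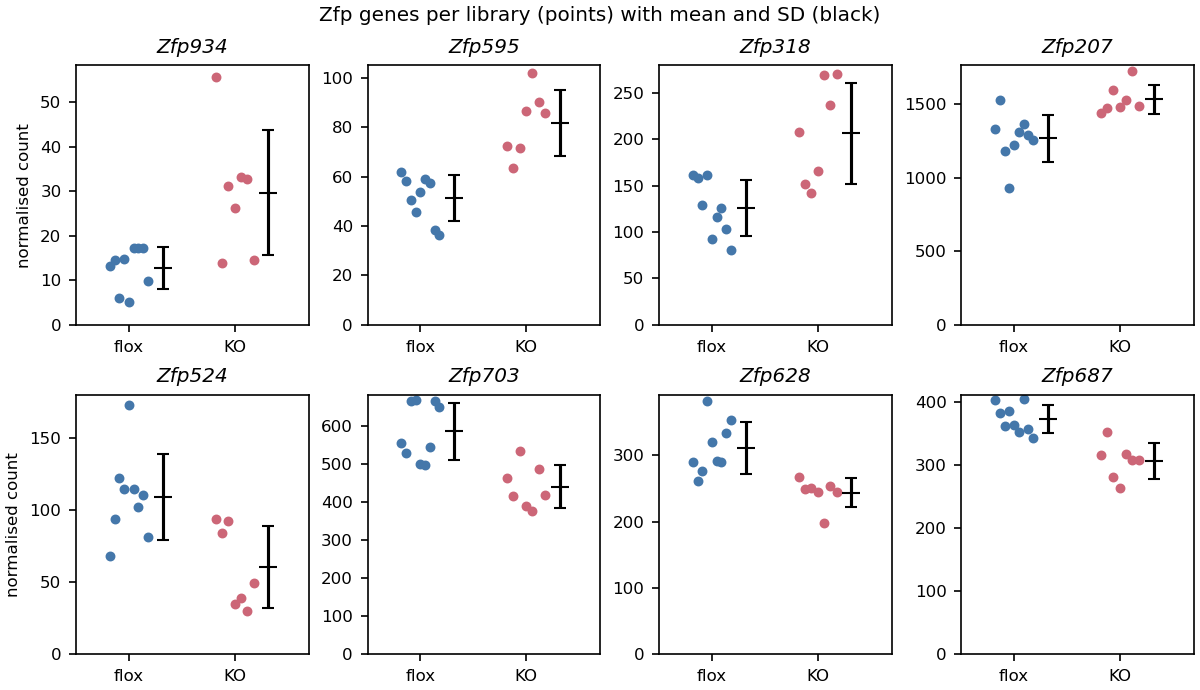
Normalised counts of 8 Zfp genes, with 1 point per library, for flox (blue, n = 9) and KO (red, n = 7); the black marks give the mean and SD of each group, and each panel starts at 0. The upper genes were higher and the lower genes lower in KO, and of the 8 only Zfp595 had groups that did not overlap.

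Members with known roles outside transposon silencing were found in both directions. Zfp207 (11:80383279-80405733, plus strand), whose product BuGZ binds microtubules and the checkpoint protein Bub3 at the spindle, had the highest mean of the members. It ran from 929.5 to 1526 (median 1289) in flox and from 1439 to 1722 (median 1488) in KO, a 1.21-fold difference with an adjusted p of 0.0415 in limma. KO replicates 3, 5 and 7 were above every flox library, and flox replicate 2 lay above the other 4. Zfp318, a nuclear protein needed for IgD expression in B cells, was at 125.5 ± 30.3 in flox and 206.2 ± 54.3 in KO, 1.64-fold higher, at a limma adjusted p of 0.0228, which became 0.0569 at most, when KO replicate 5 or 7 was left out. Zfp292, a large nuclear protein with 14 finger patterns, was at 713.8 ± 98.4 and 882.4 ± 119.7, and did not pass in limma (adjusted p = 0.061). Zfp638, a nuclear RNA and DNA binding protein with a role in fat cell differentiation, was at 451.2 ± 64.9 and 545.5 ± 47.7, and did not pass either (adjusted p = 0.0571). Zfp451, whose human counterpart is a SUMO ligase, was higher at an adjusted p of 0.0468 in limma, a call lost without any 1 of 14 libraries. With the GC trend removed, Zfp207, Zfp292, Zfp638 and Zfp451 turned to log2 differences of -0.15, -0.15, -0.17 and -0.05, and the calls of Zfp207, Zfp318 and Zfp451 were lost.

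The 9 lower members included several of the more abundant ones. Zfp703 (8:26977325-26981461, plus strand), a transcriptional corepressor of the NET family with no classical finger array, ran from 496.6 to 667.5 (median 554.2) in flox and from 375 to 533.9 (median 418.7) in KO. Only KO replicate 3 lay within the flox range. It fell by 0.41 on the log2 scale (SE 0.093) at an adjusted p of 0.0163 in limma, from 585.7 ± 74.8 to 440.2 ± 56.8. Zfp687 (3:95006590-95015448, minus strand), a C2H2 protein found in a complex with ZNF592 and ZMYND8, was at 372.2 ± 22.3 in flox and 306.6 ± 28.5 in KO, 1.21-fold lower (limma adjusted p = 0.0239). KO replicate 2 alone lay within the flox range. Zfp622 (15:25984366-25998481, plus strand), the counterpart of a yeast factor that acts on the large ribosomal subunit, was at 733.5 ± 107 and 586.7 ± 30.2, with an adjusted p of 0.0363 in limma. Flox values of Zfp622 reached down to 565.2 in flox replicate 1, so 5 of 7 KO libraries lay within the flox range. With the GC trend removed, Zfp703 and Zfp687 turned to log2 differences of 0.06 and 0.02 and lost their calls. Zfp622 kept its call at -0.71, against -0.31 by the authors' scaling.

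Zfp628 (7:4915217-4922002, plus strand), with 16 fingers, ran from 260.9 to 382.7 in flox and from 198 to 267.2 in KO, and 6 of 7 KO libraries were below every flox library. Its limma adjusted p was 0.0278, and up to 0.0672 without flox replicate 10, KO replicate 5 or KO replicate 7. Its neighbour Zfp524 (7:5014415-5018488, plus strand), known as a telomere binding protein in human cells, showed the largest fall of the members. It ran from 68.5 to 173.2 in flox and from 30.1 to 94.1 in KO. KO replicates 1, 2 and 3 lay within the flox range, and KO replicates 4, 5, 7 and 8 held 30.1 to 49.2, below it. The means of 109.1 ± 29.7 and 60.6 ± 28.5 differed 1.80-fold (limma adjusted p = 0.0314), a call lost without any 1 of 6 libraries, at adjusted p-values up to 0.0736. Zfp710 was at 818.8 ± 102.5 and 680.3 ± 47.7, with a limma adjusted p of 0.0499 that rose to between 0.05 and 0.109 without any 1 of 12 libraries. Zfp768, Zfp688 and Zfp93 were lower in the authors' deposited table, but had limma adjusted p-values of 0.0521, 0.0857 and 0.0772 and did not pass. With the GC trend removed, Zfp628, Zfp710 and Zfp768 turned to log2 differences of 0.23, 0.05 and 0.01, and the call of Zfp524 was lost at -0.51.

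Per kilobase of the gene model, the scale on which levels can be compared between genes, Zfp768 stood highest of the members named here at 346.8 normalised counts per kb in flox and 261.5 in KO. Zfp207 followed at 190.2 and 230.0, then Zfp703 at 172.7 and 129.8, and, in flox, Zfp710 at 118.2. In KO, Zfp946 (107.9) stood above Zfp710 (98.2). The order of Zfp207 and Zfp703 was the same in both groups. Zfp595 stood at 9.42 and 15.0 per kb, and Zfp934 at 2.23 and 5.16.

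A block of chromosome 17 held more of the members than any other place. The proximal part, 17:21008903-23193252 (GRCm38), holds 21 RefSeq genes with Zfp names, of which 9 were listed and all 9 were higher by the authors' scaling: Zfp160, Zfp760, Zfp995, Zfp942, Zfp943, Zfp994, Zfp758, Zfp946 and Zfp40. All 9 carry the KRAB pattern. A pair further along, Zfp81 and Zfp101 at 17:33329342-33394641, was higher too. Under quantile normalisation over the listed genes, Zfp40, Zfp760, Zfp995 and Zfp81 turned to log2 differences of -0.13, -0.18, -0.01 and -0.13. With the GC trend removed, 6 of the 9 genes of the block turned negative (Zfp160 -0.18, Zfp995 -0.12, Zfp942 -0.03, Zfp943 -0.03, Zfp994 -0.09 and Zfp946 -0.18). In all, chromosome 17 held 12 members, 22.2% of the 54, against 11.5% of RefSeq genes with Zfp names and 6.7% of all listed genes. In limma, 6 of the 12 were higher at an adjusted p under 0.05, against 19.2% of all listed genes, and the median log2 difference was 0.485, which became -0.01 with the GC trend removed. The other listed genes of the chromosome did not share that direction, since the 163 listed genes there, members included, were 51 higher and 112 lower. Whether this share differs from that of other chromosomes was not tested.

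Within the block, levels and differences varied. Zfp942 (17:21926960-21962464, minus strand) ran from 213.4 to 314.6 (median 257.2) in flox and from 252.7 to 433.3 (median 350.9) in KO, with only KO replicate 1 inside the flox range. Zfp943, beside it on the plus strand, ran from 152.9 to 234 (median 196.5) in flox and from 217.4 to 314.6 (median 275) in KO. Their adjusted p-values in limma were 0.0217, which became 0.0557 without KO replicate 7, and 0.0183. Zfp758 was at 123.1 ± 23.2 and 175.3 ± 31.5 and Zfp160 at 228.4 ± 29.2 and 279.7 ± 12.8, with limma adjusted p-values of 0.0309 and 0.0377 that reached 0.0743 and 0.0772. These calls were lost without any 1 of 5 libraries for Zfp758 and any 1 of 9 for Zfp160. Zfp946 had 6 KO libraries from 375.5 to 423.9, all above the flox maximum of 360.8, and KO replicate 1 at 262.1, near the flox minimum of 253. Zfp946, Zfp994, Zfp760, Zfp995 and Zfp40 did not pass in limma, with adjusted p-values from 0.0522 to 0.139.

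**Figure D3:**
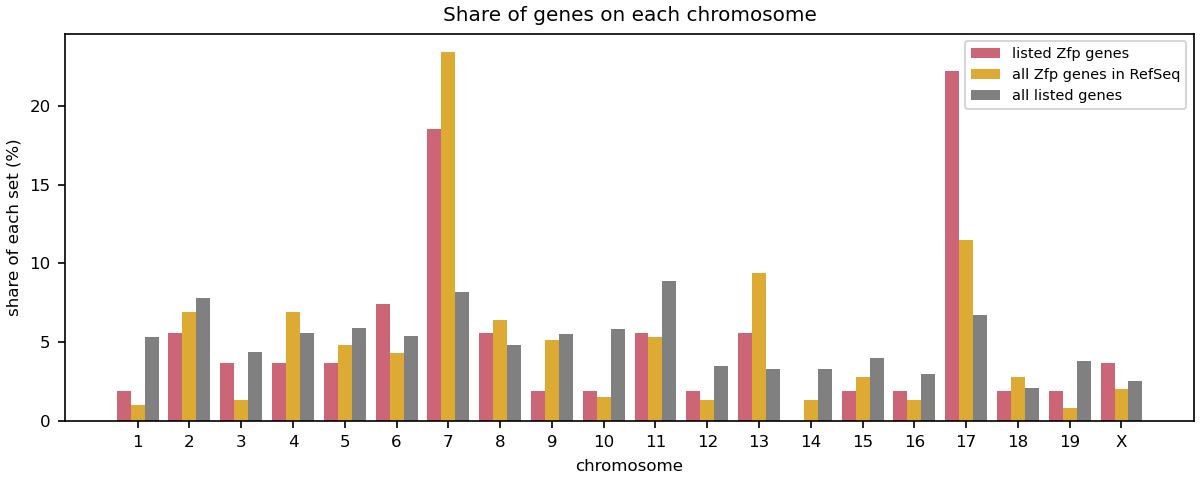
For each chromosome, bars starting at 0 give the share (%) of the 54 listed Zfp genes (red), of the 393 Zfp genes in RefSeq (yellow) and of all 2438 listed genes (grey) that lie on it. Chromosome 17 holds 22.2% of the listed Zfp genes against 11.5% of those in RefSeq, and chromosome 7 holds 18.5% against 23.4%.

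Chromosome 7 has the most RefSeq genes with Zfp names, 92, and held 10 members, 4 higher and 6 lower. By the authors' scaling, neighbours there mostly went the same way. Zfp628 and Zfp524 (7:4915217-5018488) were both lower, as were Zfp768 and Zfp688 (7:127342795-127422068), while Zfp141 and Zfp715 (7:42473386-43313294) were both higher. At 7:24193947-24277794 the pair was split. Zfp111 was higher and Zfp93 lower in the authors' deposited table. In limma Zfp628, Zfp524 and Zfp141 passed, while Zfp768, Zfp688, Zfp715, Zfp111 and Zfp93 did not, with adjusted p-values from 0.0521 to 0.119. With the GC trend removed, each pair that had gone the same way split in sign. The log2 differences were 0.23 and -0.51 for Zfp628 and Zfp524, and 0.01 and -0.25 for Zfp768 and Zfp688. For Zfp141 and Zfp715 they were 0.18 and -0.05.

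Base composition separated the members by direction. The longest transcript (GENCODE M21) of the 45 higher members had a median GC content of 39.6% (35.4% to 54.0%), and that of the 9 lower members 55.5% (43.6% to 63.5%). At the last position of the codons the medians were 35.4% and 62.2%. All 41 members with less than 55% GC at last codon positions were higher. Of the 13 members at or above it, 4 were higher (Zfp111, Zfp275, Zfp422 and Zfp956) and 9 lower. This bound was chosen after the values were seen. Zfp622 is the one lower member under 45% GC in its longest transcript, yet its codons have 70.4% GC at the last position. Promoters differed less. From 250 bases before to 50 after the start (RefSeq, 45 members matched), the median GC was 53.8% for 38 higher members and 62.7% for 7 lower ones, against 52.7% over 32851 promoters in the table.

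The finger itself shows this difference. A C2H2 finger with its linker takes 28 codons, and the following are the first complete finger that another finger follows, from 4 higher members of chromosome 17 and from 4 lower members. They are printed 5′ to 3′ on the coding strand of GRCm38 with G and C in capitals, to show how unlike in composition the same protein unit is written in the 2 groups. Zfp758 lies at chr17:22375249-22375332 (plus strand), Zfp946 at chr17:22454996-22455079 (plus), Zfp943 at chr17:21992478-21992561 (plus) and Zfp101 at chr17:33382037-33382120 (minus). Zfp628 lies at chr7:4918886-4918969 (plus), Zfp768 at chr7:127344010-127344093 (minus), Zfp687 at chr3:95010136-95010219 (minus) and Zfp524 at chr7:5017805-5017888 (plus).
Zfp758: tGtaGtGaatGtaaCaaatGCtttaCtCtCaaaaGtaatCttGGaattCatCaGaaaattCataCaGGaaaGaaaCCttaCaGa
Zfp946: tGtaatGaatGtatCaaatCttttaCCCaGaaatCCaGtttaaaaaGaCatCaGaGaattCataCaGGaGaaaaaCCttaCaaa
Zfp943: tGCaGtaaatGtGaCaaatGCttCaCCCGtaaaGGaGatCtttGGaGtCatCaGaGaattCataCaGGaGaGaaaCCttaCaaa
Zfp101: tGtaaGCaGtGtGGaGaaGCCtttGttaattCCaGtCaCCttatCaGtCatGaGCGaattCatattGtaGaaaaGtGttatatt
Zfp628: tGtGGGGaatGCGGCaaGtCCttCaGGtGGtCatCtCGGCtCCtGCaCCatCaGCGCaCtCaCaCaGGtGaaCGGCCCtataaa
Zfp768: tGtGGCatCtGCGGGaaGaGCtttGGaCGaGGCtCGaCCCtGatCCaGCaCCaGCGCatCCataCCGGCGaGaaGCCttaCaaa
Zfp687: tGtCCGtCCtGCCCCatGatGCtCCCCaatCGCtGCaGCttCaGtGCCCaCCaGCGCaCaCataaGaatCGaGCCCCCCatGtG
Zfp524: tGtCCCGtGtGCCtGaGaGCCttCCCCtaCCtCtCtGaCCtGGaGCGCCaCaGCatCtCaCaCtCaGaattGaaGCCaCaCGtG
In the 4 higher genes 6 to 9 of the 28 last codon positions are G or C, and in the 4 lower genes 17 to 21. Over the 37 higher members for which such a stretch was read, the median GC was 36.9% (29.8% to 59.5%) with 9 of 28 last positions G or C. Over 7 lower members it was 58.3% (53.6% to 60.7%) with 20 of 28.

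Over all listed genes, too, composition and direction went together. Of all listed genes with a transcript GC under 40%, 187 were higher and 9 lower (95.4% higher), and the 24 members there were all higher. From 40% to 45% GC, 88.2% of listed genes were higher, and 17 of 18 members. At 55% GC or more, 12.1% of 701 listed genes were higher, and none of 6 members. Abundance moved with direction too, since 90.5% of listed genes with a mean under 50 were higher against 7.3% of those with a mean of at least 1000. Among genes with a mean from 50 to 1000 and a GC under 45%, 28 of 29 members and 307 of 335 other listed genes (91.6%) were higher. In the same range of means at 55% GC or more, 0 of 6 members and 30 of 296 other listed genes (10.1%) were higher. The same was seen per library. Listed genes that are no members, with GC under 40%, had median log2 differences from the flox mean between -0.14 and 0.13 in flox and between 0.28 and 0.60 in KO. The highest of these was in KO replicate 1 and the lowest KO value in KO replicate 2.

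When the trend of the log2 values with GC was removed within each library, the median log2 difference became 0.03 over the members and 0.01 over all listed genes tested, with 32 members above 0 and 20 below. The limma calls were then 1 higher and 2 lower members, against 3.93% and 10.1% of all listed genes. At an unadjusted p under 0.05 they were 2 and 5, against 23.5% and 23.8% of the listed genes. The 3 genes called were Zfp956 (0.80, adjusted p = 0.0293), Zfp93 (-0.87, adjusted p = 0.0153) and Zfp622 (-0.71, adjusted p = 0.0027), named after their values were seen. By the authors' scaling they stood at 0.58, -0.56 and -0.31 in limma, so the removal made these differences larger in size. Zfp956 and Zfp93 had not passed there, with limma adjusted p-values of 0.0526 and 0.0772. Zfp956 was at 52.3 ± 12.7 in flox and 77.9 ± 14.1 in KO and has the highest GC of the higher members, but turned to -0.03 under quantile normalisation. The trend was fitted to the listed genes, which were selected, and so it also takes away any difference that genes of like GC have in common. Whether GC content or what moves with it had a part in the differences was not tested.

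**Figure D4:**
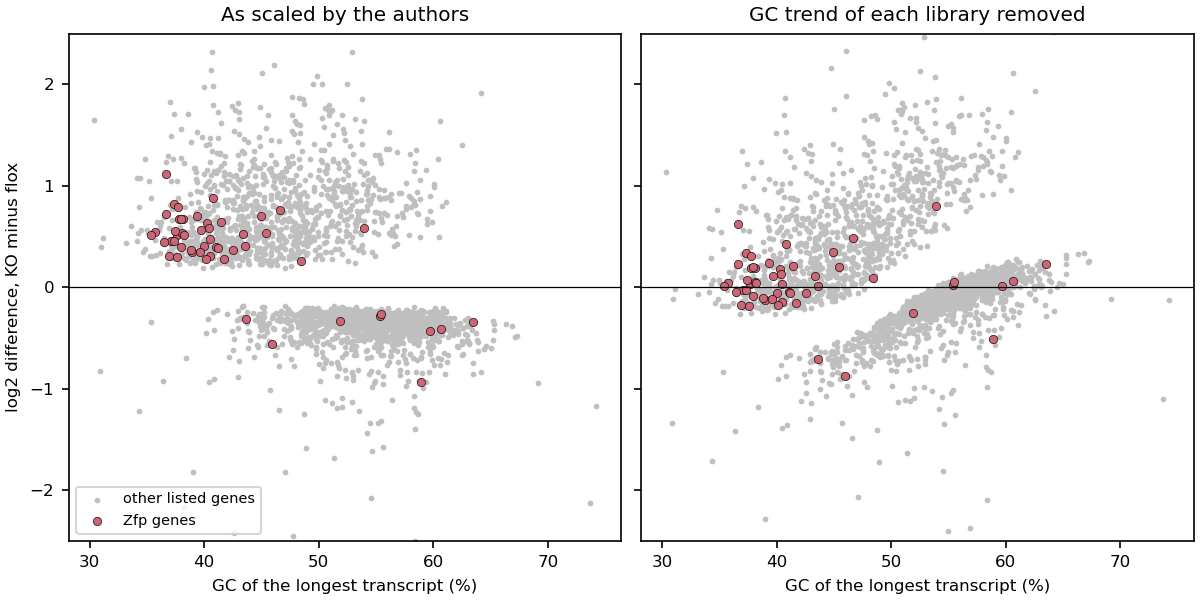
Each point is a listed gene, Zfp genes in red and the others in grey, with the GC content of the longest transcript (%) on the x axis and the limma log2 difference (KO minus flox) on the y axis, drawn from -2.5 to 2.5, which leaves out 26 genes. Left, with the authors' scaling, the Zfp median was 0.46 and low-GC members lay above 0. Right, after removal of the GC trend of each library, it was 0.03 and the red points lay on both sides of 0.

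Markers of other cells were listed as well. Of 76 markers of T cells, B and plasma cells, mast cells, myeloid, stromal, endothelial, muscle and glial cells, 12 (15.8%, against 14.8% of all genes tested) were listed and all 12 were higher in KO, 4 of them in limma, namely 5 of 17 T cell, 1 of 13 B and plasma cell, 2 of 8 mast cell, 3 of 9 stromal and 1 of 8 endothelial markers. How many of the 76 the authors tested is unknown, so 15.8% and 14.8% have unlike bases. No myeloid, muscle or glial marker was listed. Their summed level was 409.3 to 930.5 in flox and 578.6 to 2350 in KO, highest in KO replicate 1, and of the 12 only Lum was at 0 in any library. Of the enterocyte markers 7 of 14 were listed and all were lower, with sums of 579100 to 822200 in flox and 379100 to 621100 in KO. Of the proliferation markers 11 of 16 (68.8%) were listed and all were higher, with sums of 767.3 to 2514 and 2035 to 4381. In such bulk libraries fewer cells of a type and less RNA per cell cannot be told apart. Among the KO libraries, replicate 2 had the lowest non-epithelial sum, 578.6, and the lowest median log2 difference of the 45 higher members, 0.371. Replicate 1 had the highest sum, 2350, with a median of 0.455, and replicate 7 the highest median, 0.65, with a sum of 1285.

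The score of the non-epithelial markers was the mean log2 value of the 12 listed ones, all selected as higher in KO. As a covariate it therefore also takes away differences that go with the group. With this score as a covariate in limma, 0 members passed in either direction at an adjusted p under 0.05. At an unadjusted p under 0.05, 19 were higher and 2 lower, against 9.15% and 12.2% of the listed genes. The members' median log2 difference was 0.35, against -0.13 for all listed genes tested. Pancreatic enzyme transcripts set 5 flox libraries apart (replicates 4, 6, 7, 9 and 10). Of 29 such genes 24 (82.8%) were listed, all lower in KO. Their sum was 7283 to 151344 in those 5 libraries and 404.1 to 1786 in KO. Without those 5 libraries, 0 members passed in limma at an adjusted p under 0.05 with 4 flox libraries left. At an unadjusted p under 0.05, 32 were higher and 6 lower, against 30.7% and 42.1% of the listed genes, and the median was 0.39. The part of other cells and of pancreatic tissue in the results was not tested.

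The counts of members called differed between ways of scaling the libraries. TMM scaling over the listed genes moved the median of all listed genes from -0.25 to -0.11 and that of the Zfp genes from 0.46 to 0.60, and 41 members were then higher and 0 lower in limma (6 lower at an unadjusted p under 0.05), against 30.9% and 8.08% of all listed genes. As by the authors' scaling, 43 members lay above 0 and 9 below. Quantile normalisation over the listed genes moved these medians to 0.01 and 0.04, with 31 members above 0 and 21 below, against 43 and 9 by the authors' scaling. It left 4 members higher and 4 lower in limma, against 8.21% and 7.05% of all listed genes. The Zfp median stood 0.71 above that of all listed genes by the authors' scaling and by TMM, and 0.03 above it by quantile normalisation. Both of these scalings were fitted to the listed genes, which were selected. Among them, 90.5% were higher at a mean under 50 and 7.3% at a mean of at least 1000. Quantile normalisation gives every library the same distribution of values over these genes, so it can also take away differences that go with abundance.

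**Figure D5:**
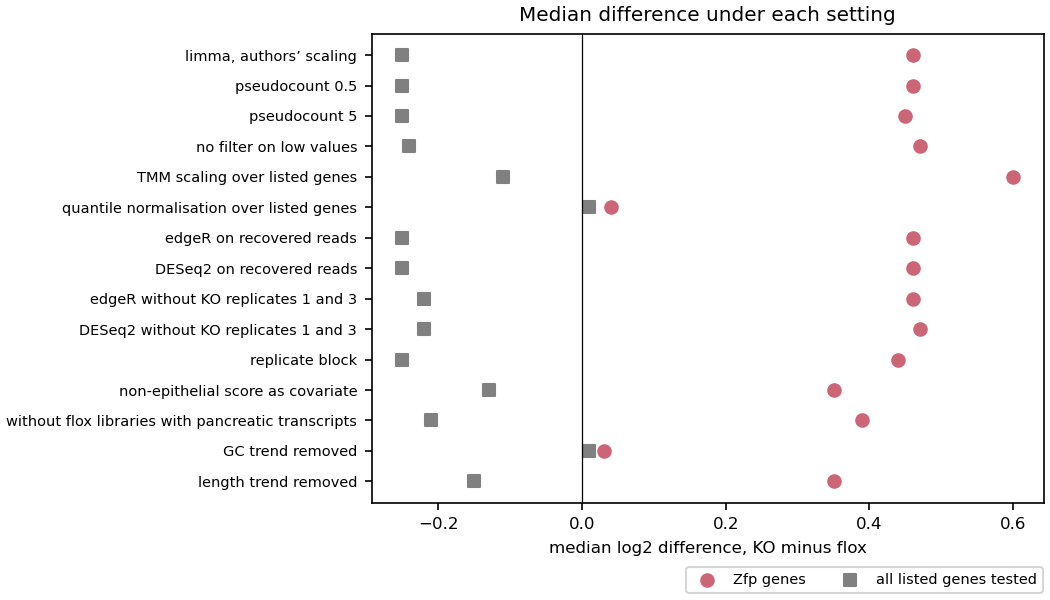
Median log2 difference (KO minus flox) of the tested Zfp genes (red circles) and of all listed genes tested (grey squares) under each way of processing the values. The Zfp median lay above 0 in every one, from 0.03 with the GC trend removed to 0.60 with TMM scaling, and it was within 0.03 of the median of all listed genes under quantile normalisation and GC removal.

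Partners of KRAB zinc finger proteins were read from a list of 35 genes of the TRIM28 corepressor, heterochromatin and NuRD complexes. Of these 9 were listed, 7 higher (Fam208a, Rbbp7, Atrx, Hdac2, Dnmt1, Uhrf1 and Suv39h2) and 2 lower (Ehmt2 and Gatad2a) in the authors' deposited table. In limma 6 partners were higher, all but Fam208a (adjusted p = 0.0549), and 2 lower, against 19.2% and 35.1% of all listed genes tested. Trim28 itself was not listed. Atrx, a chromatin remodeller that works with DAXX in heterochromatin, was at 553.1 ± 55.1 in flox and 740.0 ± 107 in KO (limma adjusted p = 0.0136). The log2 difference of Atrx, 0.41, became -0.05 with the GC trend removed. Hdac2, a histone deacetylase of NuRD, was at 325.6 ± 57.1 and 456.4 ± 68.3 (limma adjusted p = 0.0193). Uhrf1, which guides the maintenance methyltransferase to newly copied DNA, was at 79.3 ± 44.8 and 171.5 ± 68.8, and Dnmt1, that methyltransferase, at 173.0 ± 45.9 and 274.8 ± 97.8. Both are also genes of dividing cells, and 11 of the 16 proliferation markers were listed as higher in KO, as given above; their part in the result was not tested. Ehmt2, which methylates histone H3, was at 1748 ± 207.2 and 1442 ± 159.4, and Gatad2a, a NuRD subunit, at 2001 ± 134 and 1718 ± 153.3. With the non-epithelial covariate, and again without flox replicates 4, 6, 7, 9 and 10, 0 partners passed in limma in either direction (3 and 6 higher, 0 and 1 lower at an unadjusted p under 0.05). Removal of the GC trend left 2 higher and 0 lower, against 3.93% and 10.1% of all listed genes tested. Leaving out 1 library at a time gave 2 to 6 higher and 0 to 2 lower. It gave 2 or 3 higher and 0 lower without flox replicate 1, 3, 4 or 10 or KO replicate 1, 3, 4, 5 or 7.

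Zinc finger families of other names were listed at shares on both sides of the 14.8% of all genes tested. Of 41 RefSeq genes named Zbtb 5 were listed (2 higher, 3 lower), of 17 Klf genes 3 (all lower), of 16 Zc3h genes 4 (1 higher, 3 lower), of 24 Zdhhc genes 5 (2 higher, 3 lower) and of 11 Zkscan genes 1 (higher). Of 83 Rnf genes 7 were listed, all lower, and of 68 Trim genes 8 (5 higher, 3 lower). The shares listed were 25.0% for Zc3h, 20.8% for Zdhhc, 17.6% for Klf, 12.2% for Zbtb, 11.8% for Trim, 9.1% for Zkscan and 8.4% for Rnf. These shares are of all RefSeq genes of the name, tested or not, so their base is unlike that of the 14.8%. No Zscan or Zmym gene was listed. The median GC of the listed genes was 57.4% for Zbtb, 55.5% for Klf and for Zc3h, 52.0% for Rnf, 50.7% for Trim and 49.3% for Zdhhc. The listed Zkscan gene had 41.0%.

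The listed genes whose levels followed the mean standardised level of the members most closely over the 16 libraries were G2e3 and Prpf39 (Pearson r of 0.947 each), Slc22a7 (0.937) and Tia1 (0.927). All 4 were selected as different between the same groups, so much of this reflects the groups. Within the 9 flox and the 7 KO libraries, r was 0.924 and 0.803 for Prpf39, a splicing factor, and 0.765 and 0.632 for G2e3, a ubiquitin ligase. It was 0.793 and 0.454 for Tia1, an RNA binding protein, and 0.43 and 0.265 for Slc22a7, a transporter of organic anions. The transcripts of Prpf39 and G2e3 have 37.6% and 37.9% GC, close to the median of the higher members. That of Tia1 has 41.2% GC, and that of Slc22a7 56.7%, close to the median of the lower members.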

How the data were processed

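Per the labels' protocols, TRIzol extracts were enriched for poly-A RNA on poly-T beads and made into libraries with the NEBNext Ultra kit. The submitters' processing notes name the genome build GRCm38 (mm10), the aligner HISAT2 2.0.5, the counter featureCounts 1.5.0-p3 and, for testing, DESeq2 1.20.0, without settings. The signal in the library columns of the table the authors deposited is the count of reads over a size factor specific to each library. From the values, 100% of the nonzero entries were whole within 0.0001 reads, and these counts were recovered for edgeR and DESeq2. The recovery could not be checked in KO replicates 1 and 3. The authors' log2 fold changes and the authors' deposited p-values are cited as theirs.

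limma 3.58.1 (R 4.3.3; trend, robust) was run on log2(value + 1) for genes with a mean of at least 10, adjusted over 16488 genes, and tested on simulated data. Alternatives were other pseudocounts, no filter, TMM and quantile scaling, edgeR 4.0.16, DESeq2 1.42.0, leaving out libraries, a replicate block, a marker covariate, and removal of GC or length trends (loess span 0.5). Libraries of a group differed by a chi-square per degree of freedom of at least 16.1, so none was counted as a duplicate. The members and lists were chosen with earlier results of these data known. Members named are by the authors' log2 fold change the 12 that rose most and the 8 that fell most, the 4 with the highest means and 8 with known roles, 24 in all. A further 12 (the other members in or near the chromosome 17 block, Zfp729b and Zfp956), and those named for a count, were chosen after their values were seen. Sequences are those of GENCODE M21 transcripts on GRCm38. A finger was read for 37 of the 45 higher and 7 of the 9 lower members. The member on chromosome 18, Zfp397, was among those not read.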

Additional observations from a re-analysis of the deposited data

Results flagged for a closer look

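In each gene and group of 4 to 10 libraries, the highest and lowest library was compared with its nearest neighbour. Chance sets about 1 in 20 groups apart in this way, and 92 groups were checked. In KO replicate 1, Ephb4 stood at 84.7 normalised counts (next 37.3), Zfp932 at 73.9 (next 48.5) and Dnmt1 at 484.4 (next 277.4), each the highest of its group, and Zfp946 at 262.1 was the lowest (next 375.5). In KO replicate 4, Zfp951 at 17.5 (next 11.4) and Zfp994 at 237.6 (next 177) were the highest. Zfp628 at 198.0 in KO replicate 5 was the lowest of its group (next 244.1). In flox, Zfp770 at 67.9 in replicate 7 (next 48.7) and Ehmt2 at 2253 in replicate 4 (next 1836) were the highest.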

How the results depend on the processing

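By the authors' scaling, limma called 23 Zfp genes higher and 6 lower, 449 and 820 of all listed genes, and 6 and 2 repressor partners, and the Zfp median was 0.46. TMM gave 41 and 0, 723 and 189, 0 partners lower and a median of 0.60. Quantile normalisation gave 4 Zfp genes higher, 192 and 165 of all listed genes, 3 and 0 partners and a median of 0.04, and turned Zfp40 (-0.13), Zfp938 (-0.09), Zfp760 (-0.18), Zfp995 (-0.01), Zfp81 (-0.13) and Zfp956 (-0.03). DESeq2 called 39 Zfp genes higher, and 872 and 1240 of all listed genes. Without KO replicates 1 and 3, edgeR called 10 and 2 Zfp genes, 135 and 239 of all, and 1 and 0 partners, and DESeq2 2 and 0 partners. The non-epithelial covariate gave 0 and 0, 3 and 4, and 0 and 0, with a median of 0.35 and Zfp275 at -0.41. Leaving out the 5 flox libraries with pancreatic transcripts gave 0 and 0, 5 and 6, and 0 and 0. Removal of the GC trend gave 1 and 2, 92 and 235, and 2 and 0, with a median of 0.03, and turned Zfp703 (0.06), Zfp768 (0.01), Zfp628 (0.23), Zfp687 (0.02), Zfp710 (0.05), Zfp207 (-0.15), Zfp292 (-0.15), Zfp638 (-0.17), Zfp160 (-0.18), Zfp995 (-0.12), Zfp942 (-0.03), Zfp943 (-0.03), Zfp994 (-0.09) and Zfp946 (-0.18). Removal of the length trend gave 3 partners higher, a median of 0.35 and Zfp638 at -0.06. Fewer libraries were left in the fits without some of them. The cause of the other changes was not tested.

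Leaving out 1 library at a time gave 8 to 26 Zfp genes higher and 2 to 7 lower, 153 to 592 and 365 to 902 of all listed genes, 2 to 6 and 0 to 2 partners, medians of 0.42 to 0.48, and an Ephb4 difference of -2.73 to -2.40. With the replicate number as a block, limma called 0 and 0 Zfp genes, 5 and 4 of all listed genes and 0 and 0 partners. Without adjustment, 28 and 7 Zfp genes stood under 0.05 with the block. Libraries of the same number correlated from -0.43 to 0.37 in their deviations over 6 numbers, and only number 3 correlated best with its own. No pairing by number was seen in this, but so few numbers cannot exclude one. The pseudocount, the filter and edgeR on all libraries kept each count within 1.5 times. Members with a mean under 50 rest on few reads per library, and total depth is unknown.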
